A study of Mus musculus with 6 samples.

Results

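The transcripts described here are microRNA loci of regulatory T cells (Tregs) from mouse bone marrow (BM). They are the rows of the deposited expression tables whose name begins with Mir and a digit, or with Mirlet, and whose value was above 0.001 in all 3 naive libraries. Of 1190 microRNA locus rows in a table of 36930 rows, 72 (6.05%) met this rule. They comprise 69 hairpin features and 3 long transcripts that carry microRNAs (Mir17hg, Mir22hg and Mirlet7bhg). Values are RPKM, reads scaled to the length of the feature in kilobases and to the size of the library. Because the members were selected on their naive values, their differences between CML and naive libraries are given as a description. The limma fit over all features included them, on values that the rule used, and its calls are therefore no test of the members.

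The Tregs were FACS-purified from the BM of Foxp3-DTR-GFP mice at 8 weeks of age. In this strain, the human diphtheria toxin receptor and GFP are expressed under the control of Foxp3. Both groups carry this allele. The 3 CML mice had received stem and progenitor cells (LSKs) transduced with a BCR-ABL1-GFP retrovirus, as non-irradiated syngeneic recipients that keep their own blood formation, and were studied at day 15 after induction of the leukemia. The 3 naive mice had no leukemia. GFP thus marks both the Tregs and the leukemia cells of this model, and each library stands for 1 mouse.

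MicroRNAs regulate mRNAs after transcription. A primary transcript, often an intron or exon of another gene, holds a hairpin that Drosha and Dgcr8 cut out in the nucleus. Xpo5 exports the hairpin, Dicer1 trims it to a duplex, and an Argonaute protein keeps an arm of the duplex, whose seed pairs with target mRNAs. Mirtrons bypass Drosha, since splicing itself frees an intron that folds as a hairpin. Tregs need this pathway: loss of Dicer1 in Foxp3+ cells disturbs their function, and miR-155, miR-146a and the miR-17-92 cluster have known roles in them.

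What the tables measure at these loci is RNA of precursors and of host transcripts rather than mature microRNA. The libraries were made from total RNA with a kit that primes on poly(A) tails, and reads were 76 bases long, whereas a mature arm has about 22. The values nonetheless behaved as whole reads counted on the mature arms. In features with 2 arms of equal length, 134 of 134 values of up to 30 reads lay within 0.02 of a whole number of reads, and none of these values was used to set the size of a read. In features with 1 arm, which set the size of a read, 163 of 184 values were whole with the length of the arm and 10 of 123 with the length of the whole hairpin. Since that size was fitted with the lengths of the arms, these shares are no separate test of the hairpin length. A read inside an intron or exon that crosses an arm is therefore counted, and a read that spans both arms of a hairpin may be counted in each.

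The arms that carry the results below are shown with their seed (bases 2 to 8) in capitals, 5′ to 3′, from RefSeq (GRCm38.p6). The first set are members with known roles in T cells, from a list of 90 such loci.
miR-15b-5p: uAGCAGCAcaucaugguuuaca
miR-15b-3p: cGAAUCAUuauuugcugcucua
miR-27b-5p: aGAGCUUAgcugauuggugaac
miR-27b-3p: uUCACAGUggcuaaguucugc
miR-30c-5p: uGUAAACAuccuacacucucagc
miR-30c-1-3p: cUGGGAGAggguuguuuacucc
let-7g-5p: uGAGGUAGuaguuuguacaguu
let-7g-3p: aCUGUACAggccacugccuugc
The next set had the most reads (Mir682 and Mir3064) or had reads in every naive library and few or none in CML.
miR-682: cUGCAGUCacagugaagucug
miR-3064-5p: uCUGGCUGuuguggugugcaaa
miR-3064-3p: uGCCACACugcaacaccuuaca
miR-3082-5p: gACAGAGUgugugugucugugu
miR-3082-3p: cACAUGGCacucaacucugcag
miR-6989-5p: uUGGGGACagaggcacaggaug
miR-6989-3p: uGUCCACUgucucuggucccag
miR-7686-5p: cCUUCCACuggaccuggggcugggc
miR-7686-3p: cUGCUCGGggcacuguaagaga
miR-5132-5p: gCGUGGGGugguggacucagg
miR-5132-3p: cUGAUGUUccccaucccgcag
miR-7088-5p: gCAAGUGGuggugaggaggggaaac
miR-7088-3p: uUGACCUUccuccauugcuucc
miR-6992-5p: uGCCUGUGaugguuuggcugagu
miR-6992-3p: uCUCACUGaugaucauuugcag
RefSeq gave 110 arms for 61 of the 69 hairpins, and these held 109 different seeds. Only CUUCCAU occurred in 2 of them, miR-7048-3p and miR-7077-3p. The members are thus not a seed family. Nearly all lie within other genes. The hairpin of Mir15b lies in an intron of Smc4 (chr3:69009772-69009835, plus strand) and that of Mir7686 in an exon of the long noncoding RNA Gm2044 (chr7:139957566-139957622, minus strand). Both are given here with the mature arms in capitals.
Mir15b hairpin: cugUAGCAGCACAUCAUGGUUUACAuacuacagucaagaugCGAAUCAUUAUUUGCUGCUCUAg
Mir7686 hairpin: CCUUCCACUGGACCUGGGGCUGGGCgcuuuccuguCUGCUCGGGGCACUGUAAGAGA

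Depth differed between the groups and bears on every comparison below. From the size of a read, the CML libraries held an estimated 7613445, 829201 and 2286145 reads (replicates 1 to 3) and the naive libraries 5188384, 8771715 and 9751245. Over the group, CML had 0.452 times the naive reads. CML replicate 1 held 71.0% of the CML reads and 74.7% of the CML reads of hairpin members, so rates and floors pooled over the group below rest mostly on that library. In CML replicate 2, 1 read on an arm of 22 bases is worth 54.8 RPKM, against 4.66 to 8.76 RPKM in the naive libraries, and 3 reads there are worth 164 RPKM. Among the 69 hairpin members, the mean naive value was above that of 3 reads for 63 in CML replicate 1, 6 in CML replicate 2 and 29 in CML replicate 3. Of these, 20, 1 and 10 had no reads in that library. These floors and rates speak of counting error alone, because the cDNA was amplified and copies of a molecule cannot be recognized.

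Hairpin members with reads numbered 46, 19 and 31 in CML replicates 1 to 3, and 69 in each naive library by the rule. Among all 1190 microRNA loci, where naive reads chose nothing, CML replicate 1 had reads at 129 loci and the shallower naive replicate 1 at 127. The other CML libraries had reads at 41 and 66 loci and the other naive libraries at 177 and 214. Over the 6 libraries, the number of loci with reads rose in the order of depth. All hairpin loci together took 234, 152 and 193 RPM (reads per megaread of the library, with no scaling to length) in CML and 248, 279 and 238 in naive libraries, so the highest CML library was just below the lowest naive library.

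**Figure D1:**
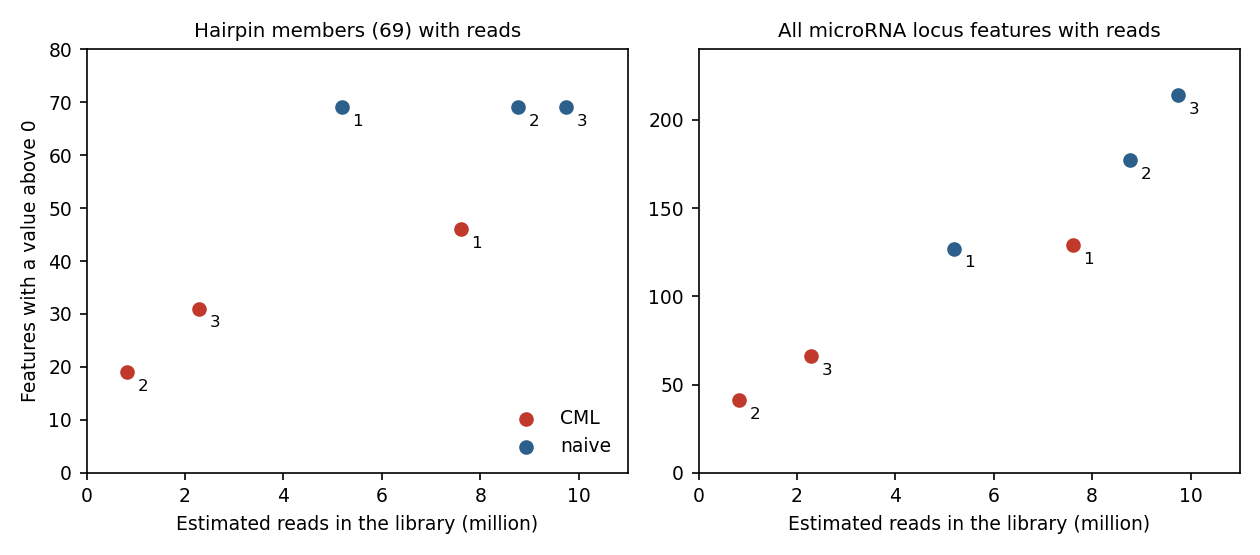
MicroRNA loci with a value above 0 (vertical axis, number of features) against the estimated reads of the library (horizontal axis), for the 69 hairpin members on the left and for all 1190 microRNA loci on the right. Points are single libraries with their replicate number. All 3 naive libraries sit at 69 on the left because naive reads chose the members, whereas on the right CML replicate 1 (129 loci) lies beside naive replicate 1 (127 loci).

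Most members rested on few reads. Summed over the 3 naive libraries, a hairpin member had a median of 24 reads, from 5 at Mir6898 to 973 at Mir682. In 39 of the 69, every naive library had at least 3 reads, and in 16 at least 10, whereas 13 had a single read in some naive library. At the edge of the rule, Mir6898 entered with 2, 1 and 2 naive reads. Outside it were 74 loci with reads in exactly 2 naive libraries, led by Mir1955 with 38 reads, and 28 of these 74 had no CML reads.

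In CML, 15 members had no reads in any library, 26 had reads in 1 library, 15 in 2 and 16 in all 3. The reverse rule, reads in all 3 CML libraries, found 17 loci. Of these, 16 were members, which is 94.1% of that list and 22.2% of the members, and the other was Mir1931. Over all hairpin loci, 153 had naive and no CML reads and 23 had CML and no naive reads. Loci seen in at least 2 libraries of a group and in none of the other numbered 43 for naive and 2 for CML. Without CML replicate 2, the least deep library, 17 members had no CML reads and 27 had reads in both remaining CML libraries.

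**Figure D2:**
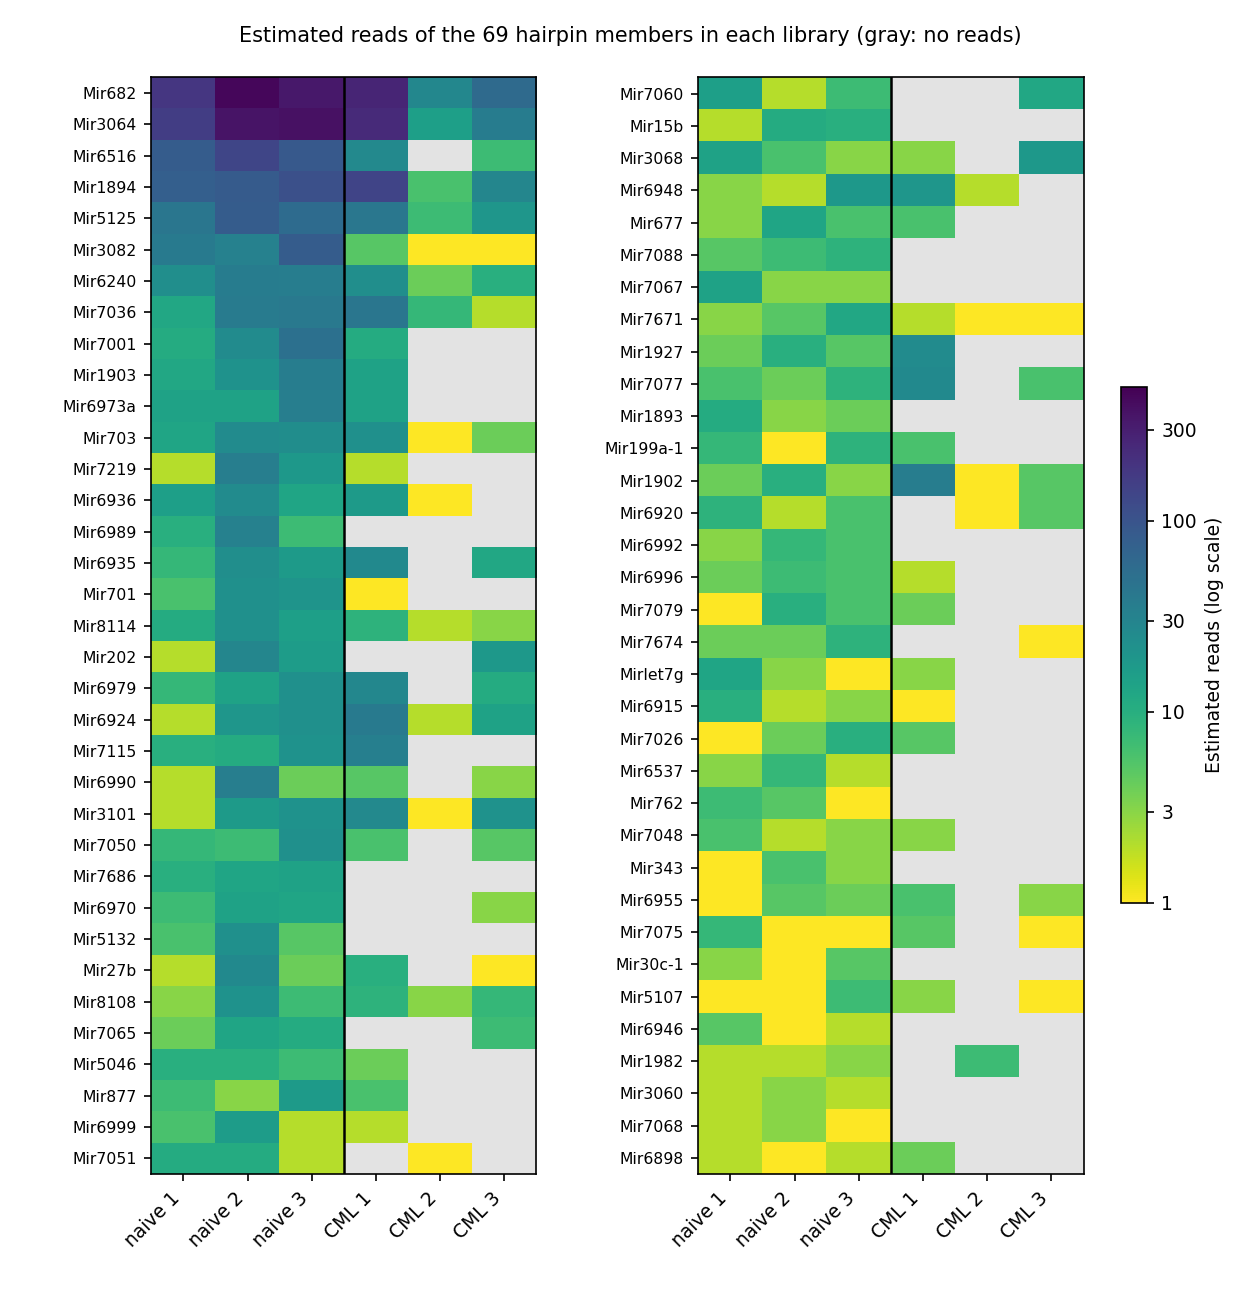
Estimated reads of the 69 hairpin members (rows, ordered by naive reads, continued in the right panel) in the 3 naive and 3 CML libraries (columns), with color on a log scale and gray for no reads. Reads are densest at Mir682 and Mir3064, and gray cells are most frequent in CML replicate 2, where 19 of the 69 rows have reads.

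The 2 most abundant members were Mir682 and Mir3064, which held 29.1% to 46.7% of the reads of hairpin members in each library. Mir682 (chr13:75645046-75645141, plus strand) had 1735, 2443 and 1631 RPKM in naive and 1657, 1608 and 1208 RPKM in CML libraries. The groups overlapped, and the difference of the mean log2(RPKM + 1) was -0.37 ± 0.21 (SE). This locus lies in Gm4149, a processed pseudogene. Its mature sequence occurs unchanged in transcript sequence of Rpl37a, a gene for a protein of the large ribosomal subunit, and in 5 other pseudogenes. Whether it lies in the principal transcript of Rpl37a was not determined. Reads of Rpl37a and of Mir682 can therefore not be told apart at this stretch. Rpl37a, named here because of that match, stood at 91.3 to 140 RPKM over its whole length in the 6 libraries.

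Mir3064 lies in Ddx5 (chr11), a gene for an RNA helicase that itself assists Drosha, within an exon that the principal transcript does not use. It had 1428, 1855 and 1753 RPKM in naive and 1427, 822 and 736 RPKM in CML libraries. All 3 CML libraries were below the naive ones, CML replicate 1 by about 1 RPKM (difference -0.81 ± 0.26 on the log2 scale). In reads, these values were 897 over the naive and 291 over the CML libraries, where 406 CML reads correspond to the naive rate at CML depth. Ddx5 mRNA had 679 to 755 RPKM in naive and 553 to 629 RPKM in CML libraries, also without overlap (-0.31 ± 0.13, limma adjusted p = 0.52 over all features).

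Mir1894, Mir5125 and Mir6240 also had reads in every library and overlapping groups. Mir1894, in the transcript of the phosphatase regulator Ppp1r10, had 440 to 666 RPKM in naive and 329 to 842 RPKM in CML libraries. Mir5125 lies in an intron of Srrm2, which encodes a splicing factor, and had 292 to 473 RPKM in naive and 282 to 422 RPKM in CML libraries. Mir6240 lies in no annotated gene and had 142 to 170 RPKM in naive and 116 to 186 RPKM in CML libraries. Their log2 differences of 0.02, -0.08 and -0.04 were smaller than their standard errors (0.33, 0.24 and 0.20).

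Mir6516 overlaps the small Cajal body RNA Gm26083. It was the third most abundant in naive reads, with 83, 136 and 88 in naive and 27, 0 and 7 in CML libraries. At the naive rate, 139 reads would fall in CML, where 34 were found. Mir703, antisense to an intron of Cfap299, had overlapping groups, and its mature sequence is also part of the mRNA of Eef1a1, an abundant elongation factor of translation. The kit does not mark strand, so reads of Mir703 and of the opposite strand cannot be separated either.

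**Figure D3:**
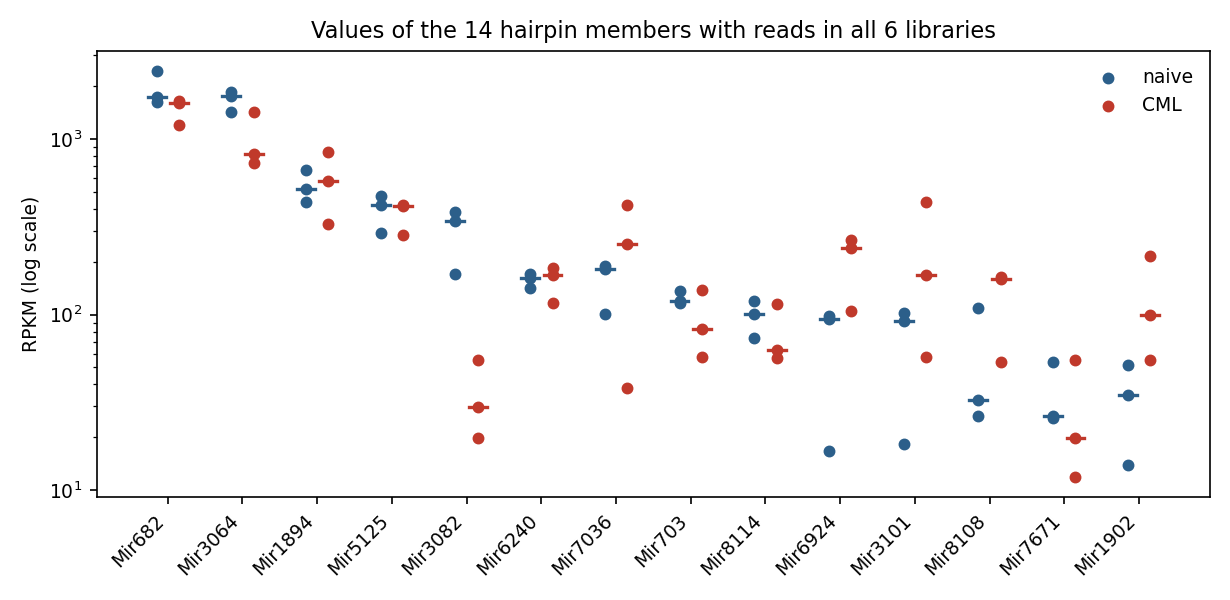
RPKM (vertical axis, log scale) of the 14 hairpin members with reads in all 6 libraries, ordered by naive reads. Each point is a library, blue for naive and red for CML, and bars mark the median of 3 libraries. Mir3064 and Mir3082 have all CML points below the naive points, Mir1902 and Mir6924 all above, and the other 10 overlap.

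Among the 16 members with reads in all 6 libraries, which include Mir17hg and Mir22hg, the median log2 difference between CML and naive was -0.06, against -0.18 over all 13923 features tested. In 3 of the 16 all CML libraries were below the naive libraries (Mir17hg, Mir3064 and Mir3082), and in 2 all were above (Mir1902 and Mir6924). Over all features these shares were 12.2% and 4.84%, and since the rule used the naive values nothing is read from the counts. Mir1902 is in an untranslated exon of Hipk3, a protein kinase, and had 35.04, 51.8 and 13.98 RPKM in naive and 215, 54.8 and 99.4 RPKM in CML libraries. The value of 54.8 RPKM is a single read. Mir6924 is in an intron of Acap1, which regulates Arf proteins. It had 16.8, 94.2 and 98.1 RPKM in naive and 240, 105 and 266 RPKM in CML libraries, the CML value nearest to naive again resting on about 2 reads.

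Mir3082 had the largest decrease among the members with reads in every library. It lies in the transcript of Stub1, a ubiquitin ligase that works with chaperones, in an exon that the principal transcript does not use. Its values were 342, 171 and 382 RPKM in naive (39, 33 and 82 reads) and 29.9, 54.8 and 19.9 RPKM in CML libraries (5, 1 and 1 reads). The groups did not overlap, and 7 CML reads compare with 69.7 at the naive rate. Stub1 mRNA itself had 57.7 to 72.6 RPKM in naive and 44.0 to 69.05 RPKM in CML libraries, which overlap.

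The limma fit over all 13923 features with a mean of at least 1 RPKM called 24 features at an adjusted p below 0.05 and a fold of at least 1.5. All 72 members were in that fit. It called 10 of them lower in CML, where 0.129% of all features were called lower, and 0 higher, where 0.0431% of all features were called higher. At an unadjusted p below 0.05 with the same fold, 33 members were lower and 2 higher (5.94% and 2.61% of all features). In 27 members all CML libraries were below all naive libraries and in 2 above (12.2% and 4.84% of all features). Since the rule required naive reads and nothing of CML, these counts carry the selection, and nothing is read from them. The count of 10 became 1 without the filter on low values, 0 with a pseudocount of 0.001, and 0, 0 and 3 without naive replicates 1 to 3.

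The 10 called members were Mir15b, Mir343, Mir3060, Mir3082, Mir5132, Mir6537, Mir6989, Mir6992, Mir7088 and Mir7686. Except for Mir3082, none had a CML read. Their naive reads ranged from 7 to 154. The other 6 members without CML reads were not called. The median log2 difference over the 72 members was -3.03, a value that depends on the pseudocount wherever a library is at 0. With reads pooled over each group and scaled to depth, and members without CML reads set to a floor of 3 reads over the group, the median log2 ratio over the 69 hairpins was -0.59. It was -0.43 over the 54 hairpins with CML reads, of which 18 had a higher rate in CML and 36 a lower rate. Both medians rest on CML replicate 1. Without it, an alternative chosen after seeing the data, the first was 0.12, where the naive rate gave fewer than 3 CML reads for 30 of the 69 hairpins. The second was then -0.030 over 35 hairpins, 17 with a higher and 18 with a lower rate.

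**Figure D4:**
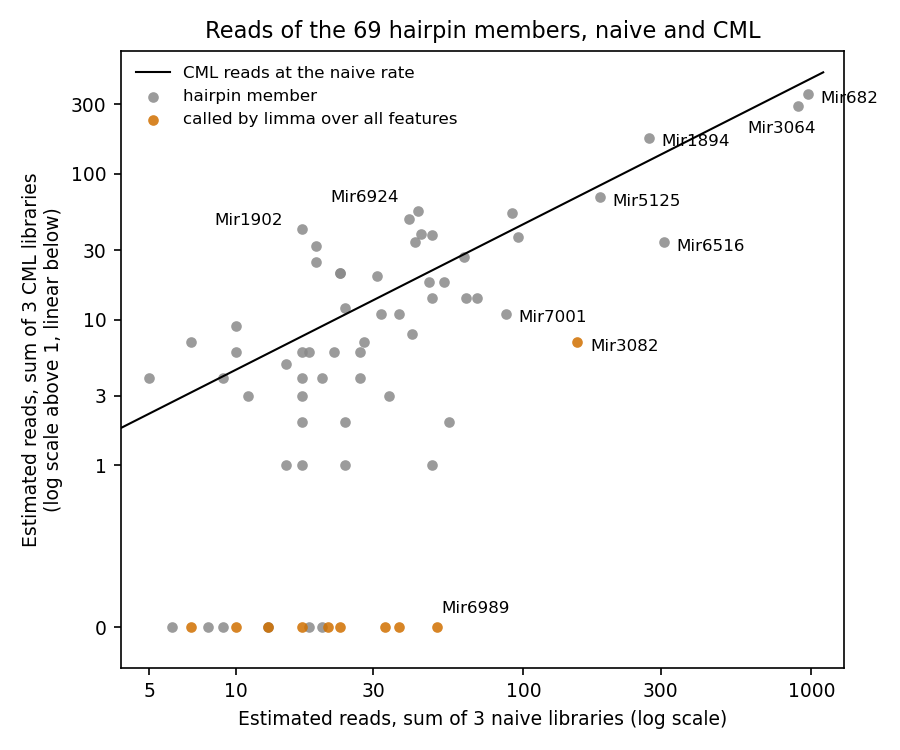
Estimated reads of the 69 hairpin members summed over the 3 naive libraries (horizontal axis, log scale) and over the 3 CML libraries (vertical axis, log scale above 1 and linear below). The line marks the CML reads that the naive rate gives at CML depth (0.452 times the naive reads), and orange points are the 10 members called by limma. Mir682 and Mir5125 lie close to the line, Mir3082 and Mir6516 well below it, and 15 members lie at 0 CML reads.

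Mir6989 had the most naive reads of a member without CML reads. It lies in an intron of Map4k2, a kinase of stress signaling (chr19:6346480-6346544, plus strand), and had 87.6, 171 and 32.6 RPKM in naive libraries (10, 33 and 7 reads). The naive rate corresponds to 22.6 CML reads, 7.54 times a floor of 3 reads over the CML libraries. This ratio, the bound used here and below, takes the naive rate pooled over 3 mice as exact. It leaves out the spread between these mice (1.93, 3.76 and 0.718 RPM for Mir6989). Naive replicate 2 held 33 of the 50 reads, and without it the bound was 4.07-fold. Without CML replicate 1 the naive rate gave 6.57 CML reads and the bound was 2.19-fold. Map4k2 mRNA had 99.6 to 111 RPKM in naive and 66.4 to 105 RPKM in CML libraries.

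Mir7686 had 82.4, 60.5 and 63.6 RPKM in naive libraries (10, 13 and 14 reads). Its naive rate was 5.58 times the same floor (1.62 times without CML replicate 1). Summed over the naive libraries, its 37 reads were split over both arms, 19 on 5p and 18 on 3p. The arm with most reads differed between naive replicates 2 and 3. Mir202 lies in the same noncoding RNA, Gm2044, and had naive reads in every library too, but in CML its reads came from replicate 3 alone (375 RPKM). The 2 loci of this transcript thus differed in which CML libraries had reads.

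Mir5132 lies in the transcript of Irak1, a kinase of interleukin-1 and Toll-like receptor signaling. It had 55.1, 119 and 24.4 RPKM in naive libraries (6, 22 and 5 reads). Its naive rate was 4.98 times the floor, 2.63 times without naive replicate 2 and 1.45 times without CML replicate 1. Mir7088, in an intron of Mst1 (the ligand macrophage-stimulating 1), had 38.5, 31.9 and 39.2 RPKM, 17 of its 21 reads being on the 5p arm. Its naive rate was 3.17 times the floor. Mir6992, in the transcript of the Golgi SNARE gene Stx5a, had 26.3, 41.0 and 28.0 RPKM, 15 of its 17 reads on the 3p arm. Its naive rate was 2.56 times the floor. Without CML replicate 1 the naive rate gave fewer than 3 CML reads for both Mir7088 and Mir6992, and no bound could be set. Mst1 mRNA had 6.89, 8.41 and 5.58 RPKM in naive and 6.66, 2.07 and 4.29 RPKM in CML libraries (-0.66 ± 0.47). The mRNAs of Irak1 and Stx5a had log2 differences of 0.05 ± 0.26 and 0.04 ± 0.24, and all 3 hosts overlapped between the groups.

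The remaining called members had fewer reads. Mir6537 lies in an intron of the transcription factor gene Pou2f2 (3, 8 and 2 naive reads), Mir343 in an intron of Ercc2, a helicase of DNA repair (1, 6 and 3 reads), and Mir3060 in an intron of Rnf215 (2, 3 and 2 reads). For these loci the naive rate was 1.96, 1.51 and 1.06 times the floor. Without CML replicate 1 no bound could be set for any of these loci, and without naive replicate 2 the bound was 1.197-fold for Mir6537 and none could be set for Mir343 and Mir3060. An absence from CML of the size of Mir3060 was not detectable at this depth, since its naive rate gives 3.17 CML reads in all. Over the 15 members without CML reads, the reads that the naive rate gives at CML depth ranged from 2.71 to 22.6.

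Few microRNAs with known roles in T cells were among the members. Of 90 listed loci, 87 had a row, 64 of these had no reads in any library, and 5 were members: Mir15b, Mir17hg, Mir27b, Mir30c-1 and Mirlet7g. Mir155, Mir21a and the loci of the miR-181 and miR-29 families were among the 64. A further 18 loci had reads in 1 or 2 naive libraries, and 0 of the 87 had CML reads without naive reads. Absence of reads here concerns precursors and host transcripts, and says nothing of the mature microRNA.

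Mir15b, of the family that targets Bcl2 and cell cycle genes, had 17.5, 57.0 and 46.6 RPKM in naive libraries (2, 11 and 10 reads) and 0 in CML. At the naive rate, 10.4 reads would fall in CML, 3.47 times the floor (1.01 times without CML replicate 1). Its host Smc4, a subunit of condensin, had 370, 412 and 330 RPKM in naive and 204, 160 and 183 RPKM in CML libraries. The CML values of Smc4 were all below the naive values (-1.02 ± 0.16, limma adjusted p = 0.073). That difference passed the adjusted threshold with libraries scaled to the same 75th percentile (adjusted p = 0.045) or quantile normalized (adjusted p = 0.048). These settings also called more of all features, 45 and 53 against 24. No other alternative called Smc4.

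Mirlet7g, in an intron of the histone methyltransferase subunit gene Wdr82, had 114, 15.5 and 4.66 RPKM in naive libraries, and 17.9 RPKM (3 reads) in CML replicate 1 alone. The level thus spread widely within the naive group, from 13 reads to 1 read. Mir27b, in a transcript of 2010111I01Rik, had 18.4, 141 and 19.5 RPKM in naive and 61.7, 0 and 20.8 RPKM in CML libraries, and the groups overlapped. Mir30c-1, in an intron of the transcription factor subunit gene Nfyc, had 26.3, 5.18 and 23.3 RPKM in naive libraries and 0 in CML. All 9 of its reads were on the 3p arm and 0 on the 5p arm.

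Mir17hg, the primary transcript of the miR-17-92 cluster, had 3.71, 7.26 and 3.60 RPKM in naive and 2.695, 1.55 and 1.68 RPKM in CML libraries, with no overlap (-0.94 ± 0.48). Mir22hg and Mirlet7bhg, the transcripts that carry miR-22 and let-7b, were near 1 RPKM. Mir22hg had 0.71 to 1.201 RPKM in naive and 0.495 to 2.05 RPKM in CML libraries, and Mirlet7bhg 1.42 to 1.997 RPKM and 0 to 4.86 RPKM. Both overlapped between the groups.

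Nearly all members lay in host genes. Of the 69 hairpins, 34 (49.3%) lay in an intron on the same strand as their host, compared with 53.3% of the 1105 other hairpins with a position. A further 20 (29.0%, against 4.98%) lay in an exon that only transcripts other than the principal ones of the host use. For 15 of these 20 the transcript was of the retained intron type. How abundant these transcripts are was not measured. Only 2 (2.90%, against 21.4%) lay outside any annotated gene. The hosts of members had a median of 55.4 RPKM in naive libraries, and the hosts of the other hairpins 9.90 RPKM. MicroRNA numbers of 5000 or higher made up 65.2% of the members and 38.5% of the others, and the median GC content of the hairpin was 56.8% against 51.5%. These shares are a description of what the rule selected and were not tested.

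By position, the reads of the 20 members in exons that principal transcripts do not use came to 76.1 to 85.7 RPM in naive and 48.2 to 75.1 in CML libraries. The 4 members in exons of noncoding transcripts (Mir682, Mir6516, Mir202 and Mir7686) came to 46.4 to 71.6 RPM in naive and 33.8 to 38.4 in CML libraries, which do not overlap. Of their 1364 naive reads, Mir682 held 973. Mir682 overlapped on its own, with 34.3 to 51.3 RPM in naive and 25.4 to 34.8 RPM in CML libraries. The 34 intronic members came to 38.7 to 45.7 RPM in naive and 14.5 to 42.9 in CML libraries, which overlap. The 5 members in untranslated exons came to 5.13 to 11.2 RPM in naive and 6.999 to 7.88 in CML libraries. Reads of all hairpin members together came to 180 to 217 RPM in naive and 111 to 162 in CML libraries. Naive reads chose these members, so nothing is read from the gaps between the groups. In bulk samples, any difference in the number of cells with a transcript could also not be told apart from one in its level per cell.

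The arms could be separated in 20 members whose arms differ in length. Reads were often uneven between them: all 20 naive reads of Mir7067 were on its 5p arm, all 17 of Mir6996 and all 15 of Mir7026 on the 3p arm, and 16 of 17 of Mir7079 on the 3p arm. Others were even only in the sum over the naive libraries, such as Mir199a-1 with 9 naive reads on each arm and Mir7671 with 10 on each. Within single libraries their reads were uneven, and the arm with most reads differed between naive libraries. In CML, 6 of 6 reads of Mir199a-1 were on the 3p arm. Since a read of 76 bases is longer than an arm, the arm counted says where reads lay on the precursor or host and not which arm an Argonaute kept.

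The values of the host genes were not used by the rule, but the hosts were reached through naive reads at loci inside them, so the selection may carry over, and their counts are a description. Of 63 hosts on the same strand, 59 had a row, and all 59 were in the limma fit. None was called by limma at the adjusted threshold, against 0.129% of all features called lower and 0.0431% higher. At an unadjusted p below 0.05, 7 hosts were lower and 1 was higher (6.77% and 2.92% of all features), and at the same p with a fold of at least 1.5, 6 were lower and 0 higher (5.94% and 2.61%). The median log2 difference of the hosts was -0.23, against -0.18 over all features. In 15 hosts all CML libraries were below all naive libraries, and in 3 above (12.2% and 4.84% of all features).

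Besides Smc4, the hosts of named members with the smallest p were Nrp1 and Pou2f2. Nrp1, the host of Mir1903, encodes neuropilin-1, a receptor found on thymus-derived Tregs. It had 138, 131 and 129 RPKM in naive and 72.9, 76.2 and 70.4 RPKM in CML libraries (-0.85 ± 0.14, limma adjusted p = 0.097), and the groups did not overlap. Mir1903 itself had 105, 109 and 168 RPKM in naive libraries, and 83.6, 0 and 0 RPKM in CML. Pou2f2, host of Mir6537, had 48.3, 53.5 and 41.9 RPKM in naive and 13.8, 23.2 and 17.1 RPKM in CML libraries (-1.38 ± 0.25, limma adjusted p = 0.13). With library weights, which called 45 of all features against 24, its adjusted p was 0.045. No other alternative called Pou2f2.

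For Mir7001, Mir7036 and Mir6936, the host overlapped between the groups. Mir7001, in an intron of the tetraspanin gene Cd82, had 106, 143 and 241 RPKM in naive and 72.2, 0 and 0 RPKM in CML libraries, whereas Cd82 differed by -0.11 on the log2 scale (limma adjusted p = 0.82). Mir7036 lies in the transcript of Srrt, a factor of nuclear RNA processing, and had 101 to 188 RPKM in naive and 38.0 to 419 RPKM in CML libraries. Mir6936, in the transcript of the deacetylase gene Sirt7, had 138, 136 and 63.5 RPKM in naive and 106, 57.4 and 0 RPKM in CML libraries.

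The genes that make and use microRNAs were compared from a list of enzymes and cofactors, of which 43 had a row and 41 were tested. Lin28a and Lin28b, which block let-7 maturation, fell below the filter. None of the 41 was called, and at an unadjusted p below 0.05 there were 2 lower and 0 higher (6.77% and 2.92% of all features). Their median log2 difference was -0.16, close to the -0.18 of all features, with 29 lower and 12 higher in sign. In 7 all CML libraries were below all naive libraries, and in 0 above (12.2% and 4.84% of all features).

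In the nuclear step, Drosha had 19.7 ± 0.43 RPKM in naive (SD, n = 3) and 21.1 ± 5.1 RPKM in CML libraries, a log2 difference of 0.07 ± 0.26. Its partner Dgcr8 had 21.8 ± 4.9 and 17.2 ± 6.6 RPKM (-0.38 ± 0.37). The exporter Xpo5 had 20.3 ± 0.67 and 22.4 ± 4.0 RPKM (0.12 ± 0.24). Dicer1, which cuts the exported hairpin, had 38.8 ± 3.8 and 31.2 ± 9.0 RPKM (-0.34 ± 0.27). None of these 4 genes passed an unadjusted p of 0.05 in limma.

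Of the Argonautes, Ago2 had 61.5 ± 5.9 RPKM in naive and 52.8 ± 11 RPKM in CML libraries (-0.23 ± 0.21). Ago3 had 35.01, 22.7 and 23.4 RPKM in naive and 15.6, 8.51 and 18.9 RPKM in CML libraries, without overlap (-0.91 ± 0.35, limma unadjusted p = 0.032, adjusted p = 0.47). The other gene past the unadjusted threshold was Srsf7, a splicing factor of a family that helps Drosha to recognize hairpins. It had 138, 159 and 138 RPKM in naive and 83.5, 109 and 108 RPKM in CML libraries (-0.54 ± 0.17, limma unadjusted p = 0.014, adjusted p = 0.36). Neither gene passed the adjusted threshold.

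**Figure D5:**
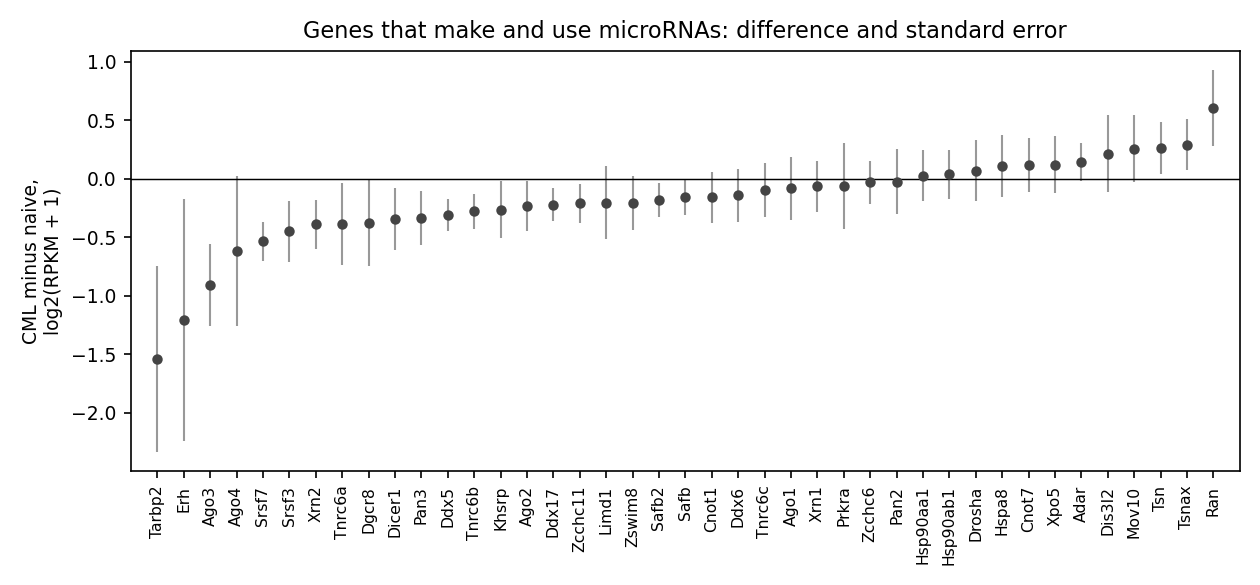
Difference between CML and naive libraries in mean log2(RPKM + 1) (vertical axis) for the 41 tested genes of microRNA production and use (horizontal axis, ordered by difference). Points are estimates of the limma fit and bars their standard errors, with 3 libraries a group. Of the 41 points, 29 lie below 0 and 12 above, and none was called at the adjusted threshold.

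The cells carried the markers of Tregs, with the summed RPKM of 9 Treg markers at 2122 to 2400 in naive and 2157 to 3025 in CML libraries. Markers of other cells moved with the group in part. The summed RPKM of 12 granulocyte and granulocyte precursor markers was 33.0 to 54.4 in naive libraries and 12.2, 213 and 233 in CML replicates 1 to 3, and that of the 10 erythroid markers with a row was 5.93 to 30.9 and 41.8 to 248. The 2 CD8 T cell markers summed to 26.2 to 58.7 RPKM in naive and 51.1 to 74.2 RPKM in CML libraries. The immunoglobulin genes Ighm and Igkc overlapped between the groups, with 475 to 620 and 74.7 to 166 RPKM in naive and 350.2 to 499 and 52.5 to 97.1 RPKM in CML libraries. The microRNA loci among these markers, Mir223 of granulocytes and Mir144 and Mir451a of erythroid cells, were at 0 in all 6 libraries. The part of such cells in the values above was not tested.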

How the data were processed

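BM Tregs of 3 CML and 3 naive mice were profiled, with 1 library per mouse. Groups and replicates follow the sample labels, in which nothing pairs a CML mouse with a naive mouse. Libraries were prepared by the authors with a SMART-Seq v4 kit and sequenced in single reads of 76 bases on an Illumina NextSeq instrument. Reads were assembled by the authors with SeqMan NGen 15 and analyzed in ArrayStar 15, and the submitters' processing notes name GRCm38 and mm10. The deposited values were read as RPKM, which the study's text does not name. A deposited value of 0.001 marks features without reads and was set to 0. In the tables, 41 feature names occur more than once and were kept as separate features.

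Reads were estimated from RPKM with the lengths of the RefSeq mature arms, as whole reads per arm whose RPKM sum gives the value within rounding. Where several totals did so, the total nearest their mean was taken. A tolerance of 0.02 reads was used to find the size of a read. It was also used to check for whole reads in features with 1 arm or 2 equal arms. In features with 1 arm, which set the size of a read, 88.6% of values were whole, and 99.2% were in features with 2 unequal arms, where several combinations are possible. For 10 members the arm length was read from the values, for 12 the total was uncertain by up to 6 reads, and for 1 (Mir6955) it is approximate. Hosts were taken from GENCODE M21 (GRCm38), and a hairpin was called exonic when 0.5 of it or more lay in exons of the principal transcripts. Copies of mature arms were exact matches to GENCODE M21 transcripts.

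Differences were fitted with limma 3.58.1 (R 4.3.3) on log2(RPKM + 1) with a trended prior variance and Benjamini-Hochberg adjustment, for 13923 features with a mean of at least 1 RPKM. Count tests were not used, since the deposited values are not counts. The fit was tested on simulated data, in which it recovered 80% of 200 changed features. These values were drawn from normal distributions without zeros from low depth, so the test does not cover loci without CML reads. Tables were handled in Python 3.11.15 with numpy 2.4.6 and pandas 2.3.3, and figures were drawn with matplotlib 3.10.9.

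The loci and gene lists were chosen with earlier results of these data known. Named loci are members on the T cell list, the 10 with the highest naive median, the 10 with the most naive reads, those called by limma and, of those with reads in all 6 libraries, those whose groups do not overlap. Their hosts were named too, and processing genes past an unadjusted p of 0.05 or needed as background. Other loci, Rpl37a and Eef1a1 were named after their values or sequences were seen. Alternatives covered the pseudocount, the filter, the scaling, the prior variance, library weights, a replicate block, each library left out, and the rule for members. Pooled reads with each library left out were added after seeing the data. The result of 1 marker list is not reported here.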

Additional observations from a re-analysis of the deposited data

How the results depend on the processing

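The count of features called by limma over the whole table, 24 as reported, was 0 with a pseudocount of 0.001, 1 without the filter on low values, 11 with a prior variance without trend, 45 with libraries scaled to the same 75th percentile, 53 with quantile normalization and 45 with library weights. Without 1 library it ranged from 0 to 29 (29 without CML replicate 1, 26 without CML replicate 2, 8 without CML replicate 3, 0 without naive replicate 1, 0 without naive replicate 2 and 3 without naive replicate 3). Among the microRNA loci, where 10 were called, the count was 0 with a pseudocount of 0.001, 1 without the filter and 6 with a filter at a mean of 5. Without 1 library it ranged from 0 to 15 (15 without CML replicate 1, 6 without CML replicate 3, 0 without naive replicates 1 or 2 and 3 without naive replicate 3). No processing gene was called under any of the 15 alternatives. Of the hosts, 0 as reported, 1 was called with the same 75th percentile (Smc4), 1 with quantile normalization (Smc4) and 1 with library weights (Pou2f2). The causes were not tested.

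The replicate block, with the replicate number as an additive term, called 1 feature over the whole table and 1 microRNA locus. Libraries with the same number belong to different mice, and nothing in the labels pairs them. Their deviations from the group means had correlations of -0.0048, -0.0016 and -0.019 over 13923 features. Between libraries of different number, the correlations ranged from -0.042 to 0.052. Such correlations cannot tell whether libraries of the same number were prepared together.

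With reads in at least 2 naive libraries as the rule, there were 146 loci, 43 of them without CML reads. With at least 3 reads in every naive library, there were 39 loci, 7 without CML reads. Leaving out a naive library gave 79 to 115 loci. Over the 6 libraries left out in turn, 17 to 34 loci had no CML reads, and 16 to 27 had reads in every CML library used, the 27 without CML replicate 2. Without CML replicate 1, 34 loci had no CML reads, and without naive replicates 1 and 2 they numbered 33 and 23. For the pooled reads, the alternatives chosen after seeing the data left out each library. The median log2 ratio with the floor, -0.59 as reported, ranged from -0.63 to 0.12 and that of hairpins with CML reads, -0.43, from -0.47 to -0.030, both highest without CML replicate 1. Of the 15 members without CML reads, the naive rate was above the floor of 3 reads for 14 as reported, 4 without CML replicate 1 and 12 to 15 without any other library.

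Differences of hosts near 0 changed sign. With the same 75th percentile, the log2 differences were 0.0047 for Cd82, 0.053 for Rnf215 and 0.063 for Wdr82. With quantile normalization they were 0.12 for Rnf215 and 0.010 for Wdr82, and with library weights 0.32 for Rnf215, -0.16 for Stx5a and 0.097 for Wdr82. Without 1 library, the range was -0.53 to 0.12 for Ercc2, -0.023 to 0.14 for Hipk3, -0.15 to 0.29 for Irak1, -0.30 to 0.43 for Rnf215, -0.58 to 0.0039 for Sirt7, -0.23 to 0.055 for Srrm2, -0.12 to 0.27 for Stx5a, -0.17 to 0.13 for Wdr82 and -0.11 to 0.22 for Drosha. The median log2 difference of all features, -0.18 as reported, was -0.080 with the same 75th percentile, -0.0068 with quantile normalization and -0.032 without CML replicate 2. Depth limits all comparisons at single loci, CML replicate 2 most of all.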
